A study of Oryza sativa with 4 samples.

Results

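EM, LEA19, RAB16A, RAB16B, RAB16C, RAB16D and RAB25 are rice genes for proteins of the late embryogenesis abundant (LEA) kind and its dehydrin branch. They were picked by name with their values in these samples already known. All probe sets whose single annotated gene carried a listed name as symbol or synonym were taken, with the Os prefix and letter case ignored and with RAB21 read as RAB16A. Of 9 listed names, 7 led to a gene with a probe set, and these 7 genes had 8 probe sets among the 57381 on the array, on which 17905 genes in all were named. LEA17 matched a gene to which no probe set was paired, and LEA14 matched no gene name, so neither was analysed here.

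The samples were total RNA from the collar of the rice flag leaf, the lamina joint between blade and sheath where the leaf angle is set, hybridised as biotin-labelled copy RNA to the Rice Genome array of Affymetrix. Wild-type plants and plants of the lc1 mutant were each measured on 2 arrays, 4 in all, described as biological replicates. The labels give no variety, plant age, treatment, allele or number of plants in a sample, and they do not say what kind of mutation lc1 is. In such bulk tissue, fewer cells of a type and less RNA per cell cannot be told apart.

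LEA proteins are hydrophilic, mostly unstructured proteins that accumulate in maturing seeds and in vegetative tissue that loses water. EM belongs to the Em class first described in cereal embryos, LEA19 is also known as LEA3-1, and the RAB16 proteins are dehydrins, named for their response to abscisic acid. In that hormone's pathway, receptors of the PYL family inhibit protein phosphatases 2C, which frees the SAPK kinases to phosphorylate bZIP factors. Those factors bind abscisic acid response elements in promoters such as those of EM and the RAB16 genes.

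Each array was scaled to a common median signal of 13.25, because the deposited array medians ran from 11.8 to 16.1. Background was taken as the 95th percentile of 23 control probe sets without a rice target, between 10.1 and 13.1 on the scaled arrays, and is called the floor. GH3.1, known in the literature as LC1, lay under the floor on both wild-type arrays (1.12 and 9.86) and read 454 and 426 on the lc1 arrays, at least 38.4-fold higher (limma adjusted p = 0.0557). The Gapdh control, read as its 5' over its 3' signal, gave 0.164 and 0.236 for the wild type against 0.246 and 0.138 for lc1. The ratios overlapped between the genotypes, and on all 4 arrays the 5' signal was far under the 3' signal. Green tissue markers were bright on all arrays, with the Rubisco small subunit gene RBCS between 6338 and 7867, and LG1, which is needed for ligule and lamina joint formation, lay above the floor on all 4, at 148 and 263 for the wild type and a lower 108 and 138 for lc1. Signals of different probe sets are not compared with each other, since probe sets differ in brightness for reasons other than RNA level. With 2 arrays per genotype, precision is limited by their number.

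EM, LEA19, RAB16A and RAB16B read at least 4-fold lower in lc1 than in the wild type, by 8.12-fold, 7.98-fold, 6.91-fold and 4.44-fold (RAB16B, 1 of whose lc1 readings lay under the floor), while RAB16C differed by 1.03-fold. RAB25 and RAB16D read lower by less than 2-fold, RAB25 close to the floor in lc1 and RAB16D on both sides of it, so that no direction is read for RAB16D. These folds are from geometric means over 2 arrays per genotype. As the genes were chosen with this contrast known, the differences are a description and carry no test. In the limma fit over 34355 probe sets, 0 of the 7 genes passed an adjusted p of 0.05, where 0.0262% of all tested probe sets did, and 4 had an unadjusted p under 0.05, where 8.16% did. All 8 probe sets had passed the filter on dim probe sets.

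EM, the Em-class LEA gene, gave scaled signals of 249 and 155 for the wild type against 13.3 and 43.9 for lc1. Both lc1 arrays lay under both wild-type arrays, and lc1 mutant 1 stood only just above its floor of 11.3. The log2 difference, lc1 minus wild type, was -3.02 with a standard error (SE) of 0.54, lower than all but 0.0466% of the tested probe sets. Against the wild-type mean, lc1 mutant 1 alone gave -3.88 and lc1 mutant 2 alone -2.16.

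LEA19, whose protein is also called LEA3-1, read 583.0 and 182 in the wild type against 25.3 and 65.8 in lc1. The genotypes did not overlap, but the wild-type arrays were themselves 1.68 apart on the log2 scale. The log2 difference was -2.996 with an SE of 0.59. Leaving out a wild-type array gave -2.16 (array 1 left out) and -3.83 (array 2), and leaving out an lc1 array gave -2.31 (array 1) and -3.68 (array 2). The probe set's type can bind transcripts of more than 1 gene.

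**Figure D1:**
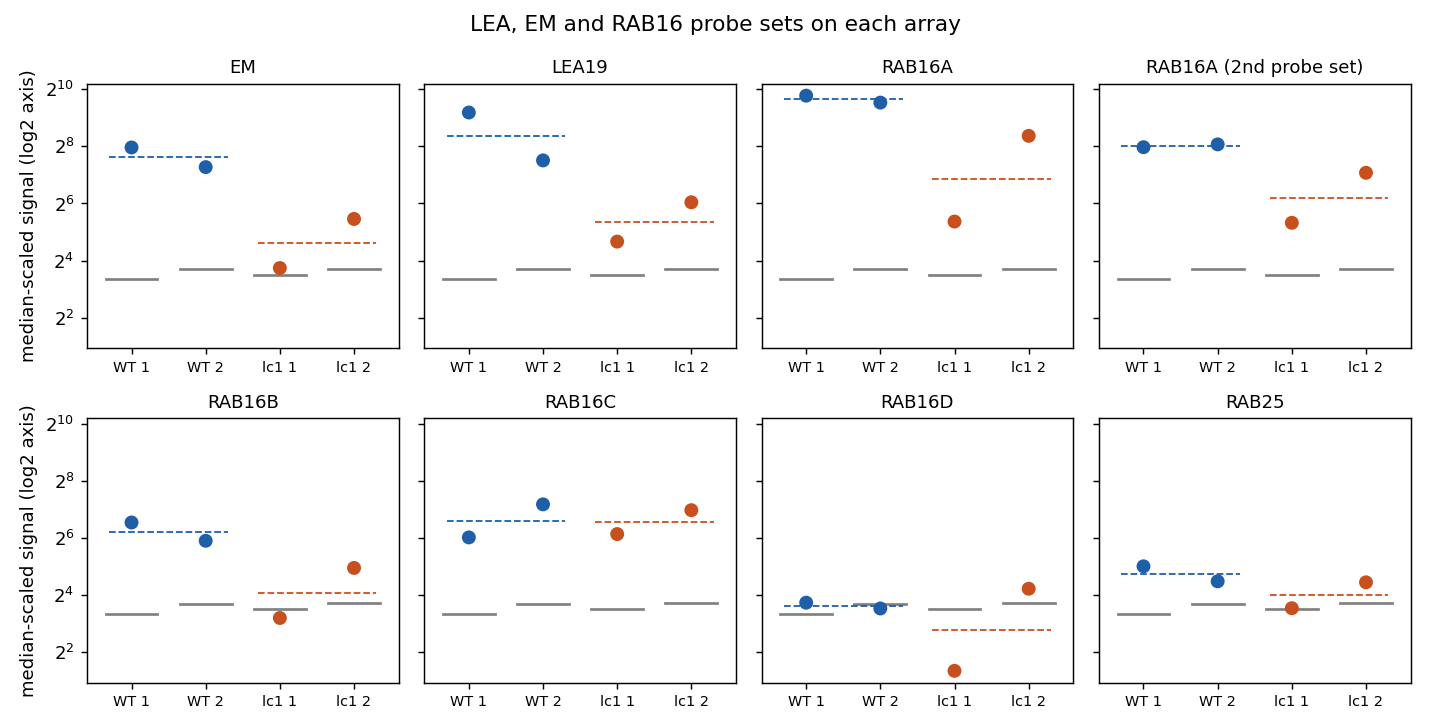
Median-scaled signal (log2 axis) of each probe set on the 4 arrays, with wild type (WT) in blue and lc1 in orange. Dashed lines are geometric means per genotype and grey bars the floor of each array. EM, LEA19, RAB16A and RAB16B have both lc1 points under both wild-type points, whereas RAB16C has 70.8 and 126 in lc1 between the wild-type values of 65.2 and 146.

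RAB16A, a dehydrin also named RAB21, was read by 2 probe sets. The brighter gave 878 and 742 for the wild type against 41.2 and 331 for lc1, and the other gave 251 and 269 against 39.997 and 135. On both probe sets the lc1 arrays lay under the wild-type arrays, which were close together, while the lc1 arrays were far apart. The log2 difference was -2.79 with an SE of 0.76 on the brighter probe set and -1.82 with an SE of 0.50 on the other, a type of probe set that can also bind related transcripts. On the brighter probe set the difference was -4.29 for lc1 mutant 1 alone and -1.29 for lc1 mutant 2 alone, so its size rested largely on lc1 mutant 1.

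RAB16B, the next gene of the dehydrin cluster, read 93.8 and 60.1 on the wild-type arrays against 9.22 and 31.1 on the lc1 arrays. The reading on lc1 mutant 1 lay under its floor of 11.3, and the genotypes did not overlap. The log2 difference was -2.15 with an SE of 0.57, and -1.27 for lc1 mutant 2 alone. With the reading on lc1 mutant 1 raised to the floor, that array alone gave -2.73 and the 4.44-fold difference became 4.0-fold.

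RAB16C, another dehydrin of the cluster, read 65.2 and 146 for the wild type against 70.8 and 126 for lc1. Both lc1 arrays fell between the wild-type arrays, and all 4 were far above the floor. The log2 difference was -0.04 with an SE of 0.45, near the middle of the tested probe sets, of which 51.1% lay lower. It took either sign when a single array was left out, from -0.62 without wild type 1 to 0.54 without wild type 2, and was 0.06 under quantile normalization.

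RAB16D read 13.4 and 11.6 for the wild type against 2.55 and 18.8 for lc1. In each genotype 1 array lay above the floor and 1 under it, and the lc1 arrays enclosed the wild-type arrays. Its log2 difference of -0.85 had an SE of 0.93, was 0.59 without lc1 mutant 1 and turned to 0.15 with both readings under the floor raised to it. RAB25 gave 32.3 and 22.4 in the wild type against 11.7 and 21.9 in lc1, all above the floor, with lc1 mutant 2 just under wild type 2. Its log2 difference was -0.75 with an SE of 0.49, and -0.30 without lc1 mutant 1.

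Counted over the 7 genes by their brightest probe sets, 5 had both lc1 arrays under both wild-type arrays, where 23.2% of all tested probe sets did. At least 4-fold lower were 4 genes, against 0.550% of all tested probe sets, and lower by any amount were 7, against 55.0%. The 7 include RAB16D, for which no direction is read, and RAB16C at -0.04. The median log2 difference of the 7 genes was -2.15, and that of all tested probe sets was -0.05. Since the genes were selected on this contrast, these counts show what was selected and nothing is read from them. Without lc1 mutant 1 the median was -1.27 and 5 of the 7 genes were lower.

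**Figure D2:**
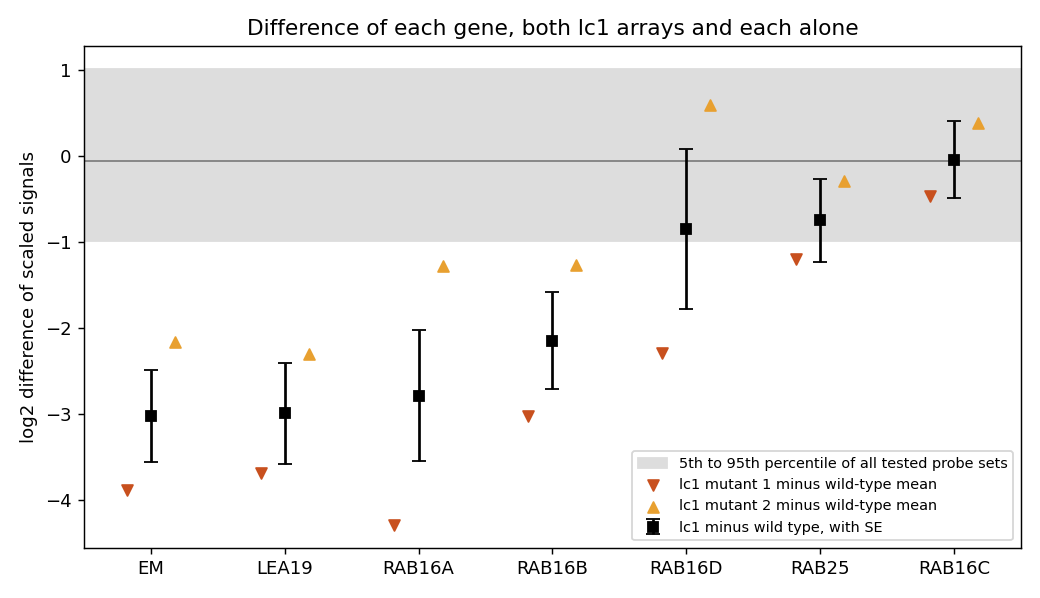
Log2 difference of each gene from the wild-type mean. Squares with bars are lc1 minus wild type with the limma SE over 2 arrays per genotype, and triangles give each lc1 array alone, while the grey band spans the 5th to the 95th percentile of all tested probe sets (-0.996 to 1.01) with its median as a line. The lc1 mutant 1 triangle is below the lc1 mutant 2 triangle for all 7 genes.

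The 7 genes were selected on the difference between genotypes, with their values on all 4 arrays known. Such a selection may also favour genes that vary between arrays of the same genotype. The shares of all tested probe sets given here are therefore no independent comparison. All 7 read lower on lc1 mutant 1 than on lc1 mutant 2, where 52.4% of all tested probe sets did, and 5 of them by at least 2-fold, where 6.33% did. For RAB16B and RAB16D the reading on lc1 mutant 1 lay under the floor. With those readings raised to it, 4 genes were at least 2-fold apart, RAB16A (log2 difference between the lc1 arrays -3.004), EM (-1.72), RAB16B (-1.46) and LEA19 (-1.38). RAB16D then gave -0.73. No share of all tested probe sets was taken with readings so raised. RAB25 gave -0.91 and RAB16C -0.84. In the wild type, array 1 was the higher for 6 of the 7 genes, against 46.3% of all tested probe sets, by a log2 difference of up to 1.68 for LEA19. RAB16C went the other way at -1.16. With a single array on each side these differences have no replicate check. The Gapdh ratio given above was lower on wild type 1 and lc1 mutant 2 than on the other array of their genotype. RNA quality, plant condition and sampling were not tested for a part in the differences between arrays.

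**Figure D3:**
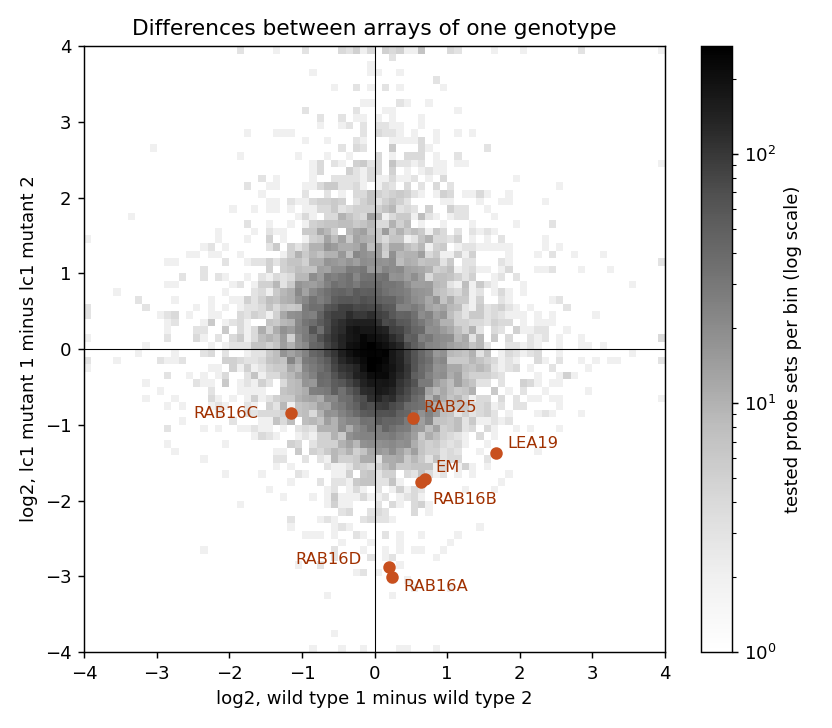
Log2 difference between the 2 wild-type arrays (x axis) and between the 2 lc1 arrays (y axis). Orange points are the 7 genes, and the grey shading counts all tested probe sets per bin on a log scale, with values beyond 4 drawn at the edge. All 7 genes lie under the horizontal zero line, with RAB16A at -3.004. RAB16D and RAB16B are drawn at readings on lc1 mutant 1 that lay under the floor, so their heights are not measured levels.

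The RAB16 genes lie next to each other on chromosome 11 in the gene table, in the order RAB16D, RAB16C, RAB16B, RAB16A. Within this stretch of 6 annotated genes the other 2, a long non-coding RNA and a pseudogene between RAB16C and RAB16B, had no probe set. The log2 differences along the stretch were -0.85, -0.04, -2.15 and -2.79, so RAB16B and RAB16A at one end were lower in lc1 on both arrays, and the genotypes overlapped for RAB16C and RAB16D. Whether the differences of RAB16A and RAB16C differ from each other was not tested, since both entered the selection. Of the 5 annotated genes beyond RAB16A, 4 had a probe set, and their log2 differences lay from -0.16 with an SE of 0.26 (LOC4350456) to 0.19 with an SE of 0.21 (LOC4350458). None of the 4 passed the limma test over all probe sets (adjusted p from 0.834 to 0.982), where 0.0262% of all tested probe sets did. Genotypes that did not overlap were found for 0 of them, where 23.2% of all tested probe sets had both lc1 arrays under both wild-type arrays. With 4 genes, nothing is read from these counts. The 5 genes on the other side had no probe set paired with them. Related dehydrin transcripts may share probe sequence, and how far the RAB16 probe sets cross-hybridise was not tested.

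**Figure D4:**
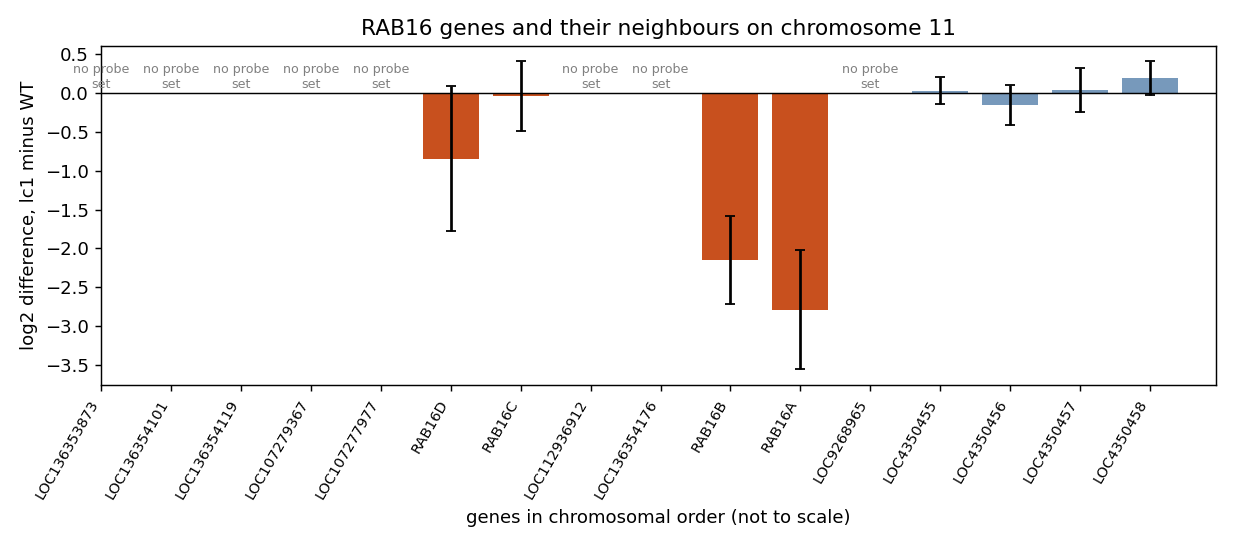
Log2 difference (lc1 minus wild type, bars with limma SE, 2 arrays per genotype) of the RAB16 genes in orange and of neighbouring genes in blue, in chromosomal order and not to scale. RAB16B and RAB16A reach -2.15 and -2.79, and the 4 measured neighbours beyond RAB16A stay between -0.16 and 0.19.

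The profile of EM over the 4 arrays was set beside those of 2265 other genes with a name, each centred on its own mean log2 signal. The 5 closest, by root mean square log2 difference, were LEA19 (0.37), RAB16B (0.44), CASPL3A1 (0.48), RAB16A (0.49) and LAC10 (0.51). LEA19, RAB16A and RAB16B were selected on the same contrast as EM. Their closeness to EM follows at least in part from that selection and is not read as a result. RAB25, RAB16D and RAB16C were farther away, at 1.17, 1.17 and 1.66. CASPL3A1, of a family related to the Casparian strip membrane proteins, read 20.5 and 17.96 in the wild type and was under the floor on both lc1 arrays. LAC10, of the laccase family, gave 133 and 78.2 against 14.2 and 46.1. Its lc1 arrays lay under its wild-type arrays, with lc1 mutant 1 lowest as for EM. As LAC10 was picked for closeness to EM on these arrays, that order follows at least in part from the choice. Since the lc1 readings of CASPL3A1 were background, their order and its distance from EM carry no likeness, and the distance of RAB16B rests in part on such a reading too. The ranking rests on 4 points, and 0 of these 5 genes were among the closest without lc1 mutant 1.

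Other genes of the abscisic acid and dehydration pathway were listed by name, with the genes above left out. Of 64 such genes 58 were tested, and 1 passed limma at an adjusted p of 0.05, higher in lc1, where 0.0262% of all tested probe sets passed in either direction. Their median log2 difference was -0.03, with 26 higher and 32 lower, beside -0.05 over all tested probe sets. The gene that passed was BURP16, a BURP domain gene of a family with dehydration-responsive members. It read 7.97 (wild type 1, under that array's floor of 10.1) and 19.3 for the wild type against 265 and 193 for lc1. The log2 difference was 4.19 with an SE of 0.45 (limma adjusted p = 0.0407), its size resting in part on that background reading. That call was lost with signals as deposited, under quantile normalization, without the filter, without the intensity trend and without wild type 1. The other 57 had limma adjusted p from 0.138 to 0.996.

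LIP9, also named DHN1, is a dehydrin outside the RAB16 cluster and was the only other LEA or dehydrin gene that the names found. It read 2178 and 1522 for the wild type against 2477 and 1707 for lc1, with overlapping genotypes and a log2 difference of 0.18 with an SE of 0.24.

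Among the regulators upstream of these genes, the 4 genes of abscisic acid synthesis and breakdown had a median log2 difference of -0.06, and 0 passed (limma, 0 at an unadjusted p under 0.05). ABA1, the zeaxanthin epoxidase of abscisic acid synthesis, gave -0.44 with an SE of 0.28, and ABA8OX1, an abscisic acid hydroxylase that inactivates the hormone, gave 0.30 with an SE of 0.56. PYL11, the only receptor found, gave -0.09 with an SE of 0.20. Of the 7 clade A phosphatases, which hold the pathway off, 0 passed limma (0 at an unadjusted p under 0.05), with log2 differences from -0.39 for PP2C08 to 0.36 for PP2C30. Over all tested probe sets 0.0262% passed limma and 8.16% had an unadjusted p under 0.05. Nothing is therefore read from counts of 0 in lists this short.

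All 10 SAPK kinases were tested and 0 passed limma, where 0.0262% of all tested probe sets did. An unadjusted limma p under 0.05 was reached by 1, where 8.16% did. SAPK4 and SAPK3 were the lowest at -0.59 and -0.54 and SAPK2 the highest at 0.28. In the list of response regulators, 5 of 7 genes were tested and 0 passed, with 1 at an unadjusted p under 0.05. With so few genes in each list, these counts are not read as a result about either. The bZIP factors ABF2 and TRAB1, of the class that binds abscisic acid response elements, gave 0.46 with an SE of 0.24 and 0.07 with an SE of 0.23. VP1, a seed regulator known to activate Em genes, lay under the floor on all 4 arrays, from 0.306 to 2.72. MFT1, of the MOTHER OF FT family and no transcription factor itself, read 578 and 948 against 207 and 257, a log2 difference of -1.68 with an SE of 0.30 (limma adjusted p = 0.138).

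The DREB factors act in dehydration and cold responses partly apart from abscisic acid. DREB1B gave 59.3 and 217 for the wild type against 376 and 8.46 for lc1, the last under its array's floor of 13.1. DREB1A gave 53.3 and 66.4 against 199 and 15.9. For both, lc1 mutant 1 was the highest and lc1 mutant 2 the lowest of the 4 arrays, the opposite order between the lc1 arrays to that of EM and the RAB16 genes. Of the 6 tested, 0 passed limma (0 at an unadjusted p under 0.05), beside 0.0262% and 8.16% of all tested probe sets. Of 26 other dehydration response genes 24 were tested, with 12 higher and 12 lower in lc1 and a median log2 difference of 0.02. The lowest were TPP2 at -0.55 with an SE of 0.47 and CLPB1 at -0.47 with an SE of 0.34. SALT, a lectin gene induced by salt and drought, read 3073 and 1609 for the wild type against 6997 and 2488 for lc1. Its genotypes overlapped, and its log2 difference was 0.91 with an SE of 0.45 (limma adjusted p = 0.643). NAC5, a stress-related NAC factor, gave 0.95 with an SE of 0.23 (limma adjusted p = 0.336).

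**Figure D5:**
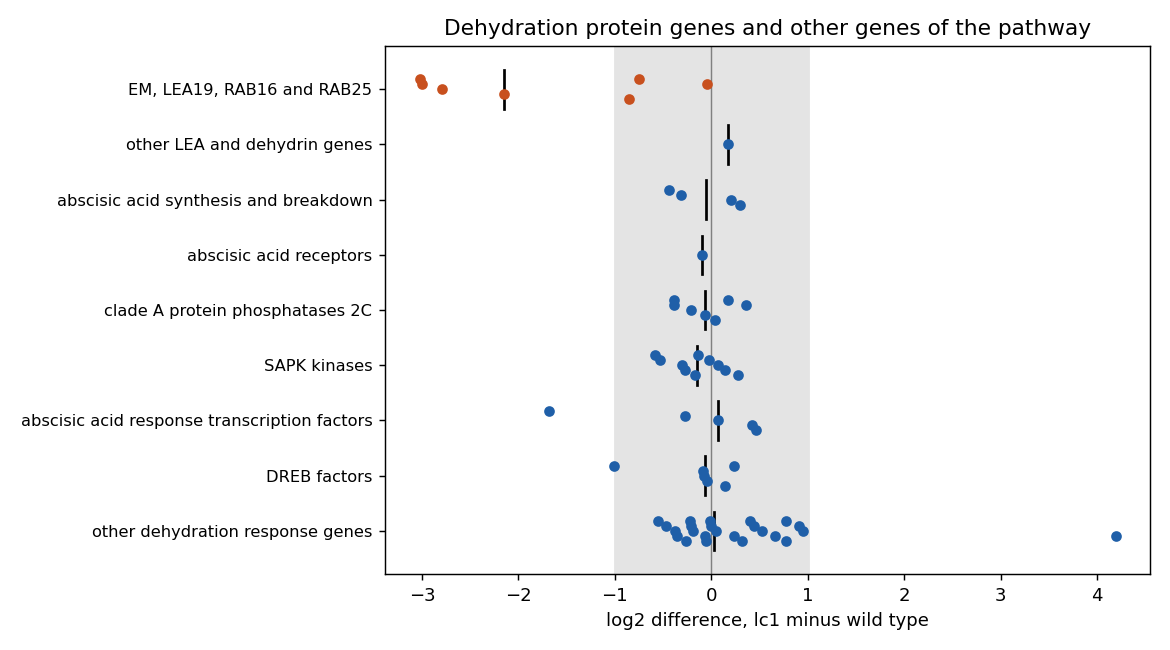
Log2 difference (lc1 minus wild type) of each tested gene, with the selected genes in orange and the other genes of the pathway in blue by list. Black ticks are medians and the grey band spans the 5th to the 95th percentile of all tested probe sets. The median of the orange genes is -2.15, and those of the 8 lists lie between -0.15 and 0.18.

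Genes of the LEA kind are also abundant in seeds and pollen, so markers of those tissues were read on the same arrays. Of 15 seed storage, endosperm and embryo genes, 9 were under the floor on all 4 arrays, glutelins GLUA-1, GLUA-3 and GLUB-4 and a prolamin among them. The brightest was GLB at 1565 to 2029, whose identity among rice genes of that name was not settled. The summed scaled signal of the list reached 2046 and 2299 for the wild type against 2458 and 2266 for lc1, while the 7 dehydration genes summed to 1915 and 1318 against 174 and 639. On each array 5 or 6 of the seed markers were above the floor. The seed marker sums overlapped between the genotypes, but most of each came from GLB (1565 and 1950 for the wild type against 2029 and 1866 for lc1). The sums of the dehydration genes did not overlap, which follows from their selection on this contrast. RAB16A alone gave 878 and 742 of the wild-type sums and 41.2 and 331 of the lc1 sums. Nothing is read from setting these sums beside each other. Of 12 pollen, tapetum and anther genes 5 were under the floor on all arrays. Their sum reached 473 and 443 for the wild type against 355 and 464 for lc1, most of it from MSP1 (243 and 272 against 204 and 247). The part of such tissue in the differences was not tested further. Sums for green blade genes (14 genes) were 30788 and 35669 against 30526 and 36721, and those for lamina joint genes (16 genes) were 2238 and 2610 against 2242 and 2047, both overlapping between the genotypes. Single lamina joint genes did not all overlap. Of 14 tested, 9 were lower and 5 higher in lc1, and 0 passed limma, where 0.0262% of all tested probe sets did. An unadjusted limma p under 0.05 was reached by 3, where 8.16% did. LG1 (log2 difference -0.69), the brassinosteroid receptor gene BRI1 (-0.60), the YABBY gene YAB5 (-0.60) and IBH1 (-0.50) had both lc1 arrays under both wild-type arrays. DWARF, a brassinosteroid synthesis gene, read 48.8 and 38.1 for the wild type against 170.4 and 153 for lc1 (1.90 with an SE of 0.30, limma adjusted p = 0.126). The part of lamina joint tissue in the differences of the dehydration genes was not tested.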

How the data were processed

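The values deposited by the authors are intensities, 1 for each probe set on each array, namely the linear signal of the Affymetrix Microarray Suite 5.0, per the series' design text. The submitters' processing notes name R 1.8.0. Detection calls and probe-level data were not used here. After deposit, each array was scaled to the mean of the 4 array medians over 57258 non-control probe sets. Values under 0.05 were set to 0.05, and log2 was taken. Reporter probe sets were counted as non-control, and 1 of them, higher in lc1, was among the 9 probe sets past the limma threshold. Probe sets with a mean at or above the 40th percentile (a scaled signal of 6.01) were tested, 34355 in all, with limma 3.58.1 in R 4.3.3 (eBayes after lmFit, prior variance trended on intensity, genotype only, 2 residual degrees of freedom, 2-sided, Benjamini-Hochberg). The fit was also run on simulated data whose spread was drawn from its own fitted prior. Such data meet the assumptions of the fit, so no support is read from them. At most 1.64% of signals were identical between 2 arrays.

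Genes were named through the platform annotation and the gene table of assembly ASM3414082v1, used for names and gene order only. The annotation pairs 22436 probe sets with 1 gene and 95 with several, and leaves 34727 unnamed. The genes described and the pathway lists were chosen with earlier results of these data known. Lists matched names in full, and 12 matches were removed as name clashes, duplicates or genes not known to belong. The probe set with the highest mean log2 signal stands for its gene. Named genes are all selected genes, the list genes past the threshold, examples from the 2 highest and 2 lowest of each list above the floor, the 5 closest to EM and the brightest marker. Promoter and protein sequences were not used here. LIP9, SALT, TRAB1, VP1, DREB1A, RBCS, LG1, BRI1, YAB5, YAB2, YAB7, IBH1, D11, TAC1, DWARF, the glutelins and the RAB16 neighbours were named after their values were seen.

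Alternatives were signals as deposited, quantile normalization, no filter, a filter at the 60th percentile, 16 added before log2, no intensity trend, the replicate number as a block, readings under the floor raised to it, and each array left out.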

Additional observations from a re-analysis of the deposited data

How the results depend on the processing

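With all 4 arrays kept, the log2 differences of the 7 genes moved by less than the spread between their own replicates under every alternative that kept the gene. Leaving out 1 of 2 arrays moves a difference by a fixed part of the gap between them and so shows nothing about stability, and the median of the 7 then ran from -1.27 to -3.03. Signs turned for RAB16C and RAB16D only, the latter to 0.15 with readings under the floor raised to it. As deposited, differences include the upward shift of 0.28 in array medians, and RAB16C then read 0.23. Counts of calls were less steady. Against 9 probe sets past the threshold (1 lower in lc1), limma called 1 (0 lower) as deposited, 4 (0 lower) under quantile normalization, 2 (0 lower) without the filter, 32 (12 lower) with the stricter filter, 31 (13 lower) with 16 added and 0 (0 lower) without the intensity trend. With 1 array left out it called 5 to 1061 (0 to 433 lower), the lone array being assumed to vary like the other genotype. Of the other pathway genes 1 passed, and 0 as deposited, under quantile normalization, without the filter and without the trend, and 0 to 6 with 1 array left out. Of the 7 genes 0 passed, and 0 to 4 with 1 array left out: EM, LEA19 and RAB16A without lc1 mutant 1, and RAB16B too without lc1 mutant 2.

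The labels number the arrays 1 and 2 in each genotype without saying that a number marks a shared batch, and the deviations of same-numbered arrays correlated at -0.04 across tested probe sets. With the replicate block limma called 634 probe sets (249 lower), 4 of the other pathway genes and 4 of the 7 genes, on 1 residual degree of freedom. Counts of calls among the 7 genes, of lower calls and of the genes kept among the 5 closest to EM, and values with readings raised to the floor, were added after seeing the data.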
